A study of Homo sapiens with 9 samples.

Results

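The RNA polymerase II (RNAPII) peaks of HEK293 cells expressing RECQL5 hairpin shRNA7 were compared with those of cells carrying the control hairpin. All 32124 peaks of the shRNA7 list and all 5287 of the control list were taken as deposited, out of 142069 peaks in the 5 RNAPII lists of the series. HEK293 is an established human embryonic kidney line. Cells were infected with lentivirus that carried either a short hairpin RNA against RECQL5 or a control, which the study's methods describe as an empty hairpin vector. Both groups were therefore infected, and RECQL5 protein was assessed by immunoblot before chromatin was taken. RNAPII-bound DNA was immunoprecipitated and sequenced, with 1 RNAPII library per hairpin, and each peak list was called against a non-specific IgG library. No separate cultures are named in the labels, so a difference between hairpins cannot be told apart from a difference between libraries. The study's methods state other, larger peak totals for both conditions, so the gains, losses and absences below are those of the deposited lists. No test between the conditions was possible, and intervals (95%) cover counting error only.

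RNAPII transcribes all protein-coding genes. It gathers at many promoters just past the transcription start site (TSS), where it pauses before entering the transcribed region, and it slows again past the polyadenylation site before it is released. RECQL5 is a RecQ-family DNA helicase that binds RNAPII and restrains transcript elongation in reactions with purified proteins. A ChIP-seq peak marks a stretch of DNA where more RNAPII-bound fragments were sequenced than the background predicted, and it does not tell whether the polymerase was moving or halted.

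Peaks over promoters and peaks within introns lay in very different DNA, and examples of both are shown to let the contrast be read directly. The promoter sequences are the 250 bases before the TSS on the strand of the gene (hg19), with CG dinucleotides in capitals. SRSF1 (chr17:56084608-56084857, minus strand), RECQL5 (chr17:73663235-73663484, minus strand) and EIF4G3 (chr1:21503779-21504028, minus strand) had no control promoter peak and 1 upon shRNA7. OR10AD1, an olfactory receptor gene (chr12:48597076-48597325, minus strand), had none in either list. The last sequence holds 201 bases centred on the summit of an intronic shRNA7 peak with no control peak over it, with runs of 5 or more A or T in capitals. It lies in EIF4G3 (chr1:21384433-21384633, minus strand) and belongs to the peak with the most tags among the new gene-body peaks of that gene that touch no coding promoter and have their summit in an intron.
SRSF1 promoter: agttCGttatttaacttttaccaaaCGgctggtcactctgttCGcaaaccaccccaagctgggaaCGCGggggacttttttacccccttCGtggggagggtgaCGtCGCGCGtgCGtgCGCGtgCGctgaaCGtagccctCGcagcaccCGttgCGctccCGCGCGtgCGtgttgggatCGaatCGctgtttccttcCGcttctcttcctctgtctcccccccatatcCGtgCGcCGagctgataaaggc
RECQL5 promoter: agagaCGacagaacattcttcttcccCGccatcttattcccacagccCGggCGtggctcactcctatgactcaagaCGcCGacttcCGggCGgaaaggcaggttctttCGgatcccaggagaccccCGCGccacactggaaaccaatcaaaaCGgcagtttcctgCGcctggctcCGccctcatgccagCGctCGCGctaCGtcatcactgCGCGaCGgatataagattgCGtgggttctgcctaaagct
EIF4G3 promoter: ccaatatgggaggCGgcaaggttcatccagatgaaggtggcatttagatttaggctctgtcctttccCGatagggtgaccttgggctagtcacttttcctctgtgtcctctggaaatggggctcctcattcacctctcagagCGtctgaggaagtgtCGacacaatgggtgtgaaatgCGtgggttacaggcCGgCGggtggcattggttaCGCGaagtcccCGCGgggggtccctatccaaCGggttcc
OR10AD1 promoter: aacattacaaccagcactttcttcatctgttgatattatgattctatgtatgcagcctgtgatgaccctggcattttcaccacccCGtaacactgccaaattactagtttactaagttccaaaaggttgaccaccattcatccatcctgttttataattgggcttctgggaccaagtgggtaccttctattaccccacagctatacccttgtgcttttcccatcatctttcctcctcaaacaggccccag
EIF4G3 intron: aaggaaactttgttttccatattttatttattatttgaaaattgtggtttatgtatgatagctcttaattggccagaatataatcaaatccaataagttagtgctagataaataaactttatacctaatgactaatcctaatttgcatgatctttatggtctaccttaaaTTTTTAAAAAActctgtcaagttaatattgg

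The SRSF1 window held 28 CG dinucleotides, the RECQL5 window 22 and the EIF4G3 window 12, against 1 in the OR10AD1 window. The intronic window of EIF4G3 held 0, and its GC content was 25.4%, below the median of 38.3% over all new intronic summits. Across all coding genes, promoters that had a peak only upon shRNA7 were rich in CG, as were promoters with a peak in both lists. The median number of CG dinucleotides in these 250 bases was 22 for 6796 promoters that gained a peak, 20 (19 to 20) for 2843 promoters with a peak in both lists and 7.00 for 9959 promoters with none. The ratio of observed to expected CG was 0.829 (0.822 to 0.835), 0.849 (0.840 to 0.856) and 0.416 (0.400 to 0.428) in the same order. The hexamer TATAAA, sought on both strands, was present in 4.21% of promoters that gained a peak, 7.25% of those with a peak in both lists and 13.7% of those with none, beside 9.43% of all promoters. GGGCGG, the core of GC boxes, was present in 70.2%, 62.3% and 40.6%, beside 54.1% of all. Promoters that lost their peak (n = 212) had a median of 19 CG dinucleotides (18 to 20), within the range of those that kept it.

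The shRNA7 peaks held 6698771 sequenced tags over 105 Mb and the control peaks 842310 over 14.2 Mb. The lists do not give the total reads of each library, and the study's methods describe the compared libraries as similar in read number. Median peak length was 2024 bp (2005 to 2041) upon shRNA7 and 1905 bp (1882 to 1938) in the control. Peaks of 10 kb or more made up 4.89% (4.66 to 5.13) and 1.93% (1.59 to 2.34). The false discovery rate (FDR), the caller's own estimate in percent from swapping sample and IgG, was at most 5% for 21639 of the shRNA7 peaks and for 5283 of the control peaks. Of 6 markers chosen for HEK293 cells, VIM (vimentin) had 55 promoter tags in the control and 3448 upon shRNA7, and the adjacent keratin genes KRT8 and KRT18 shared peaks of 75 and 207 tags. CDH2 (N-cadherin) had 0 and 307 tags, whereas PAX2 and NEFH had no peak in either list. Of 19 markers of blood, liver, muscle, brain, skin and fibroblasts, ACTN2 alone had a promoter peak, of 113 tags upon shRNA7.

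RECQL5 itself had no control peak anywhere in the gene and 1 promoter peak of 280 tags upon shRNA7. This peak is 3724 bp long and also covers the TSS of SAP30BP, which starts on the opposite strand. RECQL5 had no promoter peak upon the other hairpin, shRNA5. A hairpin acts on the mRNA, so RNAPII on the gene is no check of the knockdown. Of the other genes set by name, ITPR1, an intracellular calcium channel, had promoter peaks of 86 control and 218 shRNA7 tags. OPA1, a mitochondrial fusion GTPase, had none in the control and 88 tags upon shRNA7, with 2 gene-body peaks of 108 tags in sum. CTNNBL1 (90 tags) and KIFAP3 (51 tags) had promoter peaks only upon shRNA7, and EFNA2 had no peak. IFT80, an intraflagellar transport gene, had 87 control tags at its promoter and no shRNA7 peak. Its promoter lies in a 222 kb stretch of chromosome 3 without any shRNA7 peak. The control list had 4 peaks in that stretch, so the absence is not of this gene alone. The shRNA5 list had 7 peaks between the first and last of these 4.

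For each of 19833 protein-coding genes, 3 windows were examined: the promoter (500 bp on either side of the TSS), the gene body, and the 3' end (from 500 bp before to 2 kb past the transcript end). Peaks that touched any coding promoter were left out of the gene-body and 3' end windows. Promoter peaks were present at 3056 genes (15.4%) in the control and at 9644 (48.6%) upon shRNA7. They were gained at 6800 of 16777 genes without a control peak (40.5%) and lost at 212 of 3056 (6.94%). Gene-body peaks were gained at 5702 of 17305 genes (33.0%), and 4454 of these had no control peak of any kind in the body. Peaks at 3' ends were gained at 4196 of 18725 genes (22.4%). At least 1 window was gained at 9897 genes (49.9%), all of them at 1764, and the promoter alone at 3210.

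**Figure D1:**
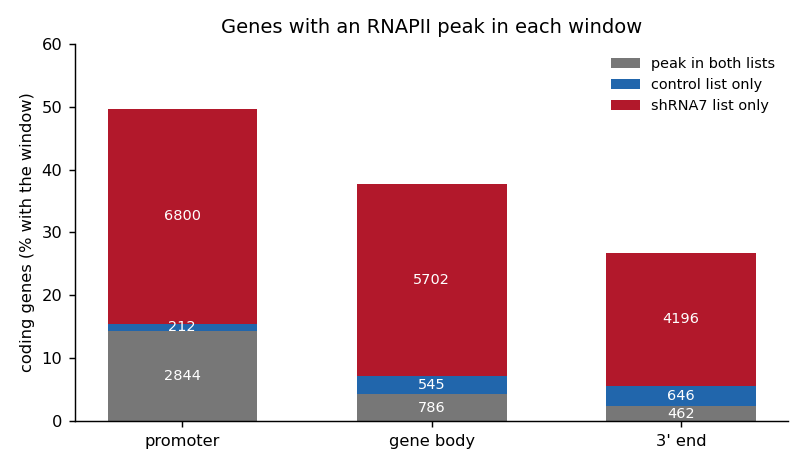
Percent of coding genes with an RNAPII peak in the promoter, gene body and 3' end, 1 library per hairpin, split into peaks in both lists (grey), the control list only (blue) and the shRNA7 list only (red), with gene numbers in the bars. Genes with a peak only upon shRNA7 were the largest part in each window (6800, 5702 and 4196).

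These numbers depended on the lengths of the lists. When each list was cut to its 5287 highest-scoring peaks, 1373 genes gained and 1240 genes lost a promoter peak, and 1416 and 1350 genes gained a gene-body and a 3' end peak. Lists of equal length tie the number of gains to the number of losses. Losses in the body and at the 3' end were mostly at genes that lay under another, promoter-reaching peak. Of 545 genes that lost a gene-body peak, 438 lay under an shRNA7 peak that reached a promoter, and 107 had no shRNA7 peak in the body. At 3' ends the numbers were 524 and 122 of 646.

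The gained promoter peaks were mostly small. Their median was 122 tags (120 to 125) over 2008.5 bp, against 348 tags (328 to 372) over 4503.5 bp for the shRNA7 peaks at the 2844 promoters with a peak in both lists. Peaks of 1000 tags or more were found at 319 gained promoters (4.69%) and at 691 of the others (24.3%). The gained promoters with the most tags lay under wide peaks. At SRSF1, which encodes a splicing factor of the SR family, a peak of 33639 bp and 5564 tags upon shRNA7 lay where the control list had none. HNRNPL, a regulator of splicing, and its neighbour ECH1 shared a peak of 31162 bp and 6807 tags, with no control peak under it. PCBP2, which binds poly(C) RNA, lay under a peak of 46818 bp and 6014 tags, and the control list had 1 peak of 60 tags there. With shRNA5 the promoter peaks of SRSF1, HNRNPL and PCBP2 held 4134, 3360 and 4661 tags. Both hairpins were compared with the same control list, so a peak absent from that list counts as gained with either.

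Other large gained peaks belonged in part to neighbours. ANAPC11, a subunit of the anaphase-promoting complex, lay at the edge of the longest shRNA7 peak (52769 bp, 6853 tags), which covered 4 control peaks with 1401 tags. The histone gene H4C9 lay under a peak of 50957 bp and 6755 tags over 2 control peaks with 985 tags. CD79A, a B-cell receptor gene, was touched by the end of a peak of 4638 tags. That peak covers RPS19, a ribosomal protein gene named here after its values were seen, which already had a control promoter peak of 1867 tags.

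Gene-body gains were most common where the promoter also had a peak. A gene-body peak was gained at 57.2% (55.1 to 59.2) of genes with a control promoter peak, at 50.1% (48.8 to 51.3) of genes that gained one and at 14.8% (14 to 15.5) of genes with none in either list. The corresponding shares for the 3' end were 38.5%, 35.5% and 9.70%. Median gene length in these groups was 23.5, 33.0 and 20.2 kb. Both shares also differed with gene length. Promoter peaks were gained at 33.8% of genes of 2 to 10 kb, 41.4% of 10 to 30 kb, 48.6% of 30 to 100 kb, 48.4% of 100 to 300 kb and 33.3% of longer ones. Gene-body peaks were gained at 13.7, 32.7, 43.6, 43.4 and 31.2% in the same order.

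Many genes had several gene-body peaks upon shRNA7. At least 5 gene-body peaks were found in 21 genes in the control and in 1041 upon shRNA7, and at least 10 in 1 and 251 genes. Of the 1041 genes, 830 had no control gene-body peak. EIF4G3, a translation initiation factor of 371 kb (hg19 chromosome 1, 21132976 to 21503778), had none in the control and 57 upon shRNA7. These 57 peaks held 31 to 543 tags each (median 112), covered 44.6% of the gene, and had all their summits in introns, from 20 to 365 kb past the TSS. The promoter peak of EIF4G3 was modest, at 97 tags. Larger shRNA7 peaks lay from 1.04 to 14.2 kb past the TSS (938 tags) and from 55.8 to 72.2 kb (936 tags). They are not among the 57 because they touched a coding promoter. ASCC3, a helicase subunit of the ASCC complex, had 48 gene-body peaks of 31 to 891 tags, with 46 summits in introns. EPHA7, an ephrin receptor, had 39, NIPBL, the cohesin loader, 35, and NCKAP1, of the WAVE complex, and PCNX2 had 31 each. None of these 6 genes had a control gene-body peak, and their shRNA7 peaks covered 27 to 44.6% of their length. The median FDR of these peaks ran from 2.46% in EIF4G3 to 6.73% in ASCC3. With shRNA5 the numbers of gene-body peaks were 36 in EIF4G3, 6 in ASCC3, 16 in EPHA7, 19 in NIPBL, 16 in NCKAP1 and 7 in PCNX2.

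**Figure D2:**
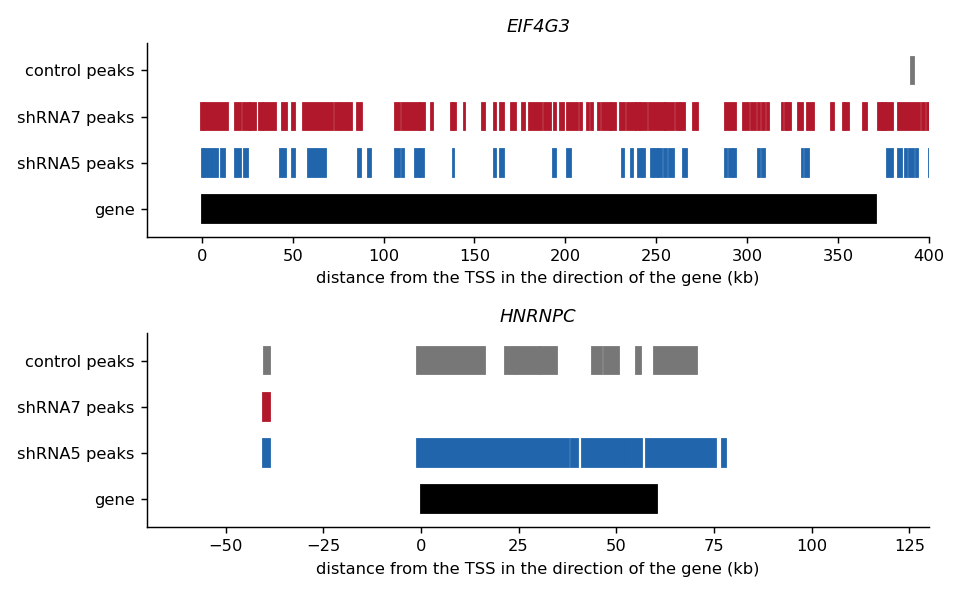
RNAPII peaks of each list (control grey, shRNA7 red, shRNA5 blue) around EIF4G3 and HNRNPC (black bar, the gene), against distance from the TSS in kb in the direction of the gene. EIF4G3 has no control peak within the gene and shRNA7 peaks along its 371 kb, whereas HNRNPC has control and shRNA5 peaks along its 60.4 kb and no shRNA7 peak within the gene.

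The median share of a gene that lay under peaks was larger upon shRNA7. Among 2935 genes of at least 2 kb with a control promoter peak, the median share of the gene covered was 4.97% (4.64 to 5.33) in the control and 34.1% (32.3 to 36.8) upon shRNA7. At least 90% of the gene was covered in 187 and 658 of them. Among 6659 genes that gained a promoter peak, the median cover upon shRNA7 was 10.7% (10.2 to 11.5), and 547 genes were covered over at least 90%.

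The 17065 new gene-body peaks, those that no control peak overlapped, were smaller than the control ones and lay further from the TSS in kb. They held a median of 79.0 tags (78.0 to 80.0) with a median FDR of 3.85%, against 102 tags (98.0 to 106) and 1.32% for 1815 control gene-body peaks. Of the summits inside coding transcripts (15750 new and 1569 control), 86.8% (86.3 to 87.4) and 68.9% (66.6 to 71.1) lay in introns. Introns make up 93.9% of all gene-body bases. With the lists cut to equal length the share for new peaks was 68.0% (65.0 to 70.8), and with a fold enrichment of at least 10 it was 74.1% (71.5 to 76.5). In genes of 10 kb or more the median distance from the TSS was 29 kb (28.2 to 29.9) for new peaks and 16.6 kb (15.6 to 18.1) for control peaks. A distance above 50 kb was found for 33.4% and 15.7%. As a share of gene length, the new summits did not lie deeper. Control summits gathered in the last 10% of the gene, which held 26.3% (24 to 28.7) of them and 13.9% (13.3 to 14.4) of the new ones. The first 10% held 6.24% (5.08 to 7.64) and 11.9% (11.4 to 12.4). Within introns alone the 201 bases around new summits had a median GC content of 38.3% (37.8 to 38.3), against 41.3% (40.8 to 42.3) for control summits.

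**Figure D3:**
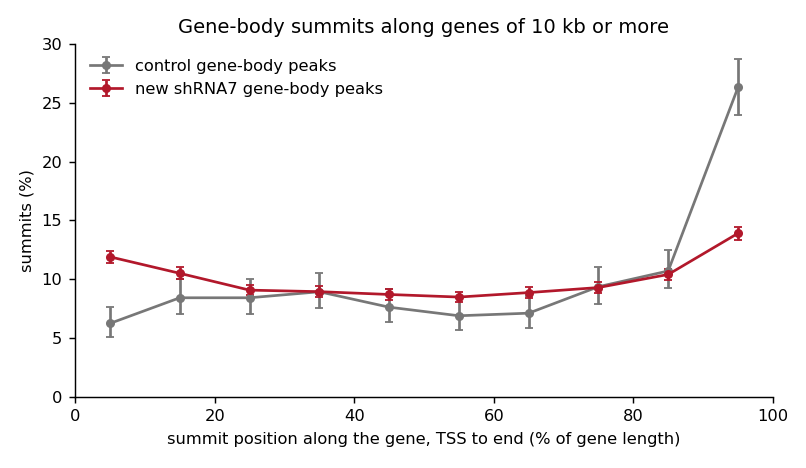
Share of gene-body summits (percent, with 95% Wilson intervals) in 10% steps along the gene from TSS to transcript end, in genes of 10 kb or more, for 1378 control peaks (grey) and 15097 new shRNA7 peaks (red). The control line climbs to 26.3% in the last 10% of it, and the shRNA7 line stays between 8.48% and 13.9%.

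At 3' ends, the largest gains extended over the end of the gene. At HNRNPR, an RNA-binding protein gene, a peak of 34441 bp and 2776 tags upon shRNA7 crossed the 3' end and covered 2 control peaks with 241 tags in sum, both outside the 3' end window. SRPK2, a kinase of SR proteins, had a 3' end peak of 27438 bp and 1932 tags over 1 control peak of 2772 bp and 118 tags, which lay past the window. SERHL2 (2149 tags, over 3 control peaks with 417 tags) and the zinc finger gene ZFP30 (1877 tags, over none) also gained one, and SERHL2 has a near-identical neighbour with which it can share reads. The 3' end peak of ETV7, an ETS transcription factor gene, held 1702 tags with no control peak under it, and its promoter had no peak in either list. NBPF20 (1875 tags, over 1 control peak of 573 tags) belongs to a family of near-identical copies, so its reads are uncertain. With shRNA5 the 3' end peaks held 627 tags at HNRNPR, 546 at SRPK2 and 283 at ZFP30, and ETV7 had none.

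Peaks present in both lists were nearly all longer upon shRNA7. Of 3059 pairs in which 1 control and 1 shRNA7 peak overlapped only each other, 2995 (97.9%) were longer upon shRNA7, 1613 (52.7%) at least 2 times longer and 660 at least 4 times. Medians were 1664 bp in the control and 4271 bp upon shRNA7, with a median ratio of 2.10 (2.04 to 2.18). Tags went from a median of 82.0 to 330 and tags per kb from 48.5 to 76.7, so that the wider peaks were also denser. Summits moved little in most pairs, with a median distance of 83.0 bp and 79.1% of pairs within 500 bp. Widening differed by place. The median ratio was 1.84 (1.77 to 1.91) at promoters and 3.42 (3.26 to 3.59) in gene bodies, where 78.8% of pairs were at least 2 times longer against 45.5% at promoters.

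Promoter peaks widened more into the gene than away from it. This was measured at 1460 promoters with no coding TSS on the opposite strand within 2 kb. The downstream edge lay a median of 742 bp (656 to 806) further into the gene and the upstream edge 332 bp (309 to 364) further out. The downstream edge went from 756 to 1623 bp past the TSS, and the upstream edge from 740 to 1126.5 bp before it. The downstream shift was the larger at 914 promoters (62.6%, 60.1 to 65.0). It was 2 kb or more at 411 promoters (28.2%), and the upstream shift at 207 (14.2%). The median summit position changed little, from 38 bp past the TSS in the control to 41 bp upon shRNA7. The peak reached the end of the gene at 72 of these promoters in the control and at 136 upon shRNA7.

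**Figure D4:**
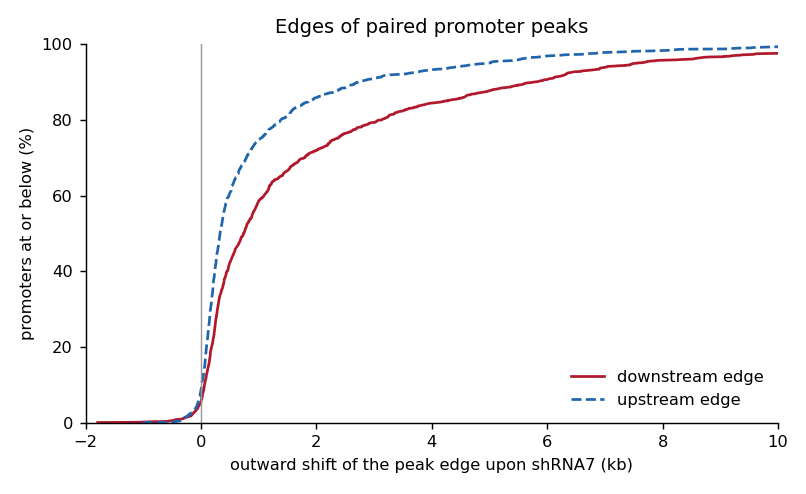
Cumulative percent of 1460 promoters against the outward shift in kb of the downstream (red) and upstream (blue, dashed) peak edge upon shRNA7. The downstream line lies to the right of the upstream line, with medians of 742 and 332 bp, and few edges moved inward (left of 0).

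In none of the 6 pairs that grew by the most base pairs did the control peak touch a coding promoter. The largest growth was at MAP3K12, where a control peak of 1329 bp and 60 tags within the gene lay under the 46818 bp peak over PCBP2. At the 3' end of XPO1, the main nuclear export receptor, the peak went from 3539 to 31161 bp and from 191 to 2640 tags. At the 3' end of REV3L, the catalytic subunit of DNA polymerase zeta, it went from 2375 to 28283 bp, and within WDR26 from 7740 to 30318 bp. Past the 3' ends of SRPK2 and of KIF5B, a kinesin heavy chain, control peaks of 2772 and 1934 bp became peaks of 27438 and 24386 bp that reached back into the gene.

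Widening also joined peaks. Upon shRNA7, 626 peaks covered 2 or more control peaks each, 1589 control peaks in all, and 24 covered 5 or more. A peak of 48603 bp over UBA1, the ubiquitin-activating enzyme, with CDK16 and USP11, and a peak of 35117 bp over the mismatch repair gene MSH6 with FBXO11 covered 9 control peaks each. At MDM2, which encodes the ubiquitin ligase of p53, 6 control peaks with 2260 tags in sum lay under 1 shRNA7 peak of 49316 bp and 10460 tags. In the HOXD cluster, 1 peak of 35298 bp and 3337 tags reached the promoters of HOXD11, HOXD10, HOXD9, HOXD8 and HOXD3. It covered 6 control peaks.

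Gains were then counted in 15 gene lists, each read against the 40.5% of all genes that gained a promoter peak. The lists were not matched for expression. Among p53 targets, 12 of the 13 genes without a control promoter peak gained one. CDKN1A, the cell-cycle inhibitor p21, had 2972 tags at its promoter upon shRNA7 and 0 in the control, though 3 control peaks with 516 tags lay under the same peak. BAX, an activator of apoptosis, had 2275 tags and BBC3 1164. With shRNA5 the promoter of CDKN1A had no peak and BAX 73 tags. In the integrated stress response list 10 of 13 genes gained one, among them DDIT3 (3065 tags, over 2 control peaks with 562 tags), the transcription factor CHOP, and CEBPG (2283 tags). ATF4, its main transcription factor, had a peak in both lists, with 1175 control and 3568 shRNA7 tags. Immediate early genes gained 6 of 12, with KLF6 at 1343 tags and SRF at 1071. In the control, KLF6 already had 2 gene-body peaks and 1 at its 3' end, and SRF had neither. EGR1, the gene in that list with the most control tags, went from 2763 to 3405 tags. Heat shock proteins gained 5 of 9, the largest being HSPB1 at 238 tags.

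Among factors of RNAPII transcription itself, 23 of 26 pause control and elongation factors gained a promoter peak. SUPT5H, a subunit of DSIF, had 1849 tags, while CDK9, the kinase of P-TEFb, had 70 at its promoter and a 3' end peak of 1030. The control list also had a peak at the 3' end of CDK9. RNAPII subunits gained 8 of 9, with POLR2L at 1277 tags, and POLR2A, the largest subunit, went from 710 to 1994. The list of RecQ helicases, topoisomerases and R-loop enzymes gained 15 of 18, which include WRN (100 tags) and the RNase H2 subunit RNASEH2C (784 tags). Gene-body peaks were gained by 22 of 36, 7 of 9 and 14 of 23 genes of these lists, beside 33.0% of all genes. SR and hnRNP splicing factors gained 10 of 13 promoter peaks, but 4 of 23 gene-body and 4 of 28 3' end peaks. Gene-body shares were also below 33.0% in immediate early (4 of 17) and HOX genes (7 of 33). They were lower still for cytosolic ribosomal protein (3 of 52) and olfactory receptor genes (1 of 196), and above 33.0% in every other list. The respiratory chain gained 39 of 45 promoter peaks, 41 of 67 gene-body peaks and 32 of 71 3' end peaks, the last beside 22.4% of all genes. NDUFB10, a complex I subunit, had the most promoter tags of those (1788), under a peak shared with RPS2, which had 668 control tags.

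Developmental and repeated gene families were less uniform. HOX genes gained 22 of 31, with HOXA11 (4209 tags) and HOXD9 (3337 tags) under peaks that also cover the promoters of HOXA10 and HOXD10, which had control peaks of 56 and 84 tags. Zinc finger genes of chromosome 19 gained 105 of 192, and their reads can be shared with near-identical copies. Replication-dependent histone genes gained 10 of 18, and are similar in sequence too. Their 3' end gains (3 of 64) cannot be read against other genes. Their median length is 0.497 kb, and peaks that touched a promoter were left out of that window. The common fragile site genes, with a median length of 1119.9 kb, gained 10 of 28 promoter peaks and 12 of 29 gene-body peaks. WWOX had 123 promoter tags and PTPRG 158, with 2 gene-body peaks in PTPRG. Cytosolic ribosomal protein genes had little room to gain, since 76 of 80 had a control peak, and 0 of 4 gained one. Peaks over them were larger upon shRNA7, as at RPL23A, which went from 1462 to 5450 tags, and RPL3, from 1230 to 3433. Olfactory receptor genes, which are silent outside the olfactory epithelium, gained 0 of 390.

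**Figure D5:**
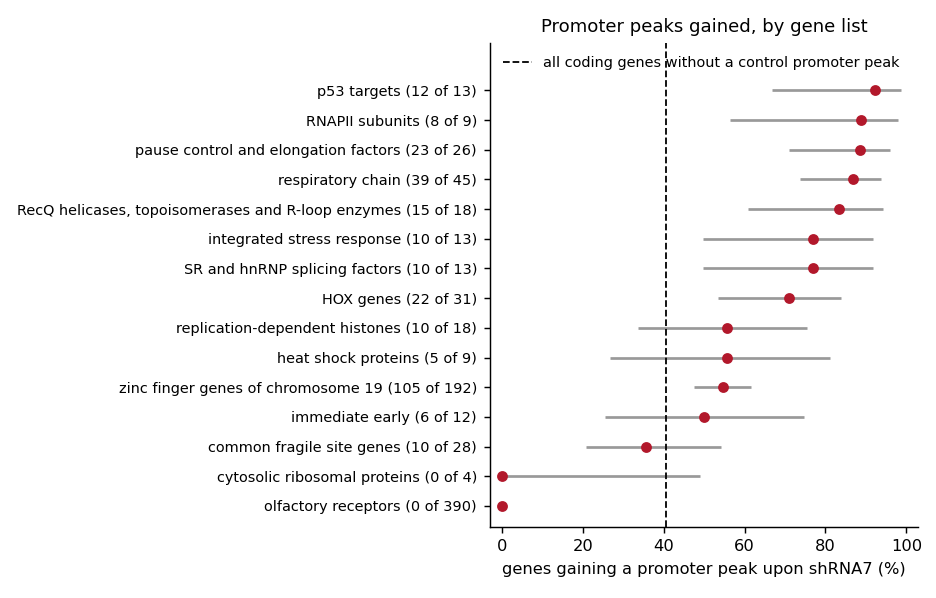
Percent of genes without a control promoter peak that gained one upon shRNA7, for 15 gene lists (points, with 95% Wilson intervals and numbers of genes beside the names), and the 40.5% of all such coding genes (dashed line). Olfactory receptors lie at 0 of 390, and p53 targets at 12 of 13.

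Not all control peaks were found upon shRNA7. Of 5287, 615 (11.6%, 10.8 to 12.5) had no shRNA7 peak over them: 230 at promoters, 337 in gene bodies and 48 elsewhere. Their median was 136 tags (124 to 156) over 2754 bp, against 90 tags (88.0 to 92.0) over 1848 bp for the 4672 others, and their median fold enrichment was lower, at 11 (10.7 to 11.4) against 13.2 (12.9 to 13.3). They also lay close together. The share missing was 3.39% (2.74 to 4.20) for control peaks with no other control peak within 20 kb, 8.01% with 1, 15.8% with 2, 30.6% with 3 to 4 and 37.9% (32.1 to 44.1) with 5 to 8, a split chosen after the values were seen. By chromosome the share was 28% (24.2 to 32) on 19, 26.1% on X and 23.8% on 17, but 0 of 75 on chromosome 4. Stretches without any shRNA7 peak that held 3 or more control peaks numbered 90 and held 431 of the missing peaks (70.1%). The stretch with the most control peaks spans chromosome 19 from 36422958 to 36655686 (hg19), with 13 peaks and 2355 tags in the control, over genes that include POLR2I and TBCB. Between the first and last of these control peaks the shRNA5 list had 20 peaks with 7886 tags.

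Some of the genes that lost a promoter peak had among the strongest control peaks. RBM39, a splicing factor, had 1550 control promoter tags and 4 gene-body peaks, and no shRNA7 peak in the gene. HNRNPC, which packages nascent RNA, had 1400 promoter tags and 7 gene-body peaks in the control and none upon shRNA7. YWHAE, a 14-3-3 protein gene, had 1139 control tags. PAF1, of the elongation complex of that name, and MED29, a Mediator subunit, share a TSS region with 903 tags, and C17orf75 and ZNF207 one with 876. MTFR2 had 864 control tags and kept 1 gene-body peak of 181 tags upon shRNA7. With shRNA5 the promoter peaks held 2845 tags at RBM39, 4100 at HNRNPC, 1580 at YWHAE, 2434 at PAF1 and 1062 at ZNF207, and MTFR2 had none. DHX9, an RNA helicase, went from 502 tags to no promoter peak with either hairpin. The lists differed over the rest of DHX9, which had 1 gene-body peak with shRNA5 and none upon shRNA7. Its promoter lies in a 172 kb stretch without any shRNA7 peak. Between the first and last control peak of that stretch the shRNA5 list had 1 peak of 934 tags. In the splicing factor list, TRA2B, SYNCRIP, HNRNPUL1 and SRSF4 lost their promoter peak beside HNRNPC, and all 5 had one with shRNA5. RBM39, HNRNPC, YWHAE, PAF1, MED29, DHX9, TRA2B, SYNCRIP and HNRNPUL1 have their promoters in stretches of 41.2 to 203 kb without any shRNA7 peak. Each of these stretches held 5 or more control peaks, so such losses are not of the single gene alone.

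The score of a peak, 10 times the negative log10 of its p-value, did not follow its tags among long peaks. In the shRNA7 list the median score was 526 for peaks of 5 to 10 kb, 738 for 10 to 20 kb and 652 for longer ones, while tags per kb went from 58.5 to 73.2 and 93.0. Scores under 100 were given to 2.78%, 3.96% and 8.53% of these peaks. In the control list the median scores were 312, 279 and 391 in the same order, with 56.8, 72.5 and 105 tags per kb. Scores under 100 were given there to 7.09%, 8.42% and 0.00%, the last of 7 peaks. The peak over XPO1 of 23569 bp and 1874 tags, which covered 5 control peaks, scored 51.4 with an FDR of 17.8%. Whether absent peaks in crowded stretches reflect the peak caller or the cells was not tested.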

How the data were processed

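RNAPII ChIP-seq had been done in HEK293 cells, and each sample was placed in its group by its title. The authors aligned 36 bp single reads to hg19 (Bowtie 0.12.7 and CASAVA 1.8, per the labels), removed blacklisted regions and called peaks with MACS 1.4.2 against IgG, as their methods state. The deposited lists give for each peak a count of tags (not normalised), a score (10 times the negative log10 of the p-value), a fold enrichment over background, which is a ratio, and an FDR in percent. IgG libraries entered only through these calls, and the lists hold no read totals. The methods describe the compared libraries as similar in read number, and state other peak totals than the lists hold, for a reason not given in the sources used here. Lists made with doxycycline were not used here.

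Genes were taken from GENCODE 44 lifted to GRCh37, each by its longest protein-coding transcript, and sequences from the GRCh37 reference. Gene bodies ran from 500 bp past the TSS to 500 bp before the end, in genes of 2 kb or more. Peaks were matched by 1 bp of overlap. Shares have Wilson intervals and medians order-statistic intervals, both at 95%. Calculations used Python 3.11, pandas 2.3.3 and scipy 1.17.1, and were tested on simulated lists. No p-values were computed. Named genes were the 7 set in the design, the 6 with the most tags, peaks or growth in each kind of change, and up to 3 gaining and 2 losing members of each gene list with further members named after their values were seen. The members and lists were chosen with earlier results of these data known. Score, FDR and fold thresholds, equal list length, merging, other windows and other rules of overlap were tried as alternatives.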

Additional observations from a re-analysis of the deposited data

How the results depend on the processing

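Of 76 recomputed values over 10 results and 11 alternatives, 43 stayed within their limits and 33 moved. The limits were 1.5 times for a count and the interval for a share or median. A change of direction was scored only for the edge shifts and the median length ratio, where 0 values changed. Counts and shares could not be scored that way. With each list cut to 5287 peaks, genes gaining a promoter, gene-body and 3' end peak numbered 1373, 1416 and 1350 and genes losing a promoter peak 1240. The share of control peaks missing was then 40.4%, the share of pairs at least 2 times longer 61.9% and the median ratio 2.48. The edge shifts were 1102 bp downstream and 524 bp upstream. The intron share was 68.0%, below the 68.9% of control gene-body summits inside coding transcripts in the whole list. A fold enrichment of at least 10 gave 3561, 1489 and 1174 genes gaining, 411 losing, 19.3% missing and 74.1% in introns. A score of at least 100 gave 131 genes losing a promoter peak, 14.9% missing, 59.2% at least 2 times longer, a ratio of 2.40, shifts of 1359.5 and 530 bp, and 83.0% in introns. An FDR of at most 5% gave 13.5% missing and 84.1% in introns. Merging peaks under 1 kb apart gave 10.1% missing, 61.0% at least 2 times longer, a ratio of 2.68 and a downstream shift of 1278 bp. Requiring 50% overlap of both peaks gave 71.5% missing, 0.00% at least 2 times longer (by construction) and a ratio of 1.41. Requiring summits within 500 bp gave 45.4% missing. Elsewhere the cause was not tested. The downstream shift exceeded the upstream one under each alternative run on it. With 1 library to a side no replicate could be left out. No paired analysis was possible because the control and shRNA7 lists hold 1 library each.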

Other observations

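Peaks outside coding genes and promoters numbered 494 in the control and 3849 among the new shRNA7 peaks. Of these, 34% (30 to 38.3) and 15.3% (14.2 to 16.5) touched the TSS of a long non-coding RNA gene. Within 10 kb past the end of a coding gene lay 44.5% (40.2 to 48.9) and 44.3% (42.8 to 45.9), and 21.5% (18.1 to 25.3) and 40.3% (38.8 to 41.9) lay elsewhere.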
